A study of Mus musculus with 19 samples.

Results

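Matrix metalloproteinases (Mmp genes), the ADAMTS proteases (Adamts genes) and the tissue inhibitors of metalloproteinases (Timp genes) were followed in RNA of 2 cell populations sorted from mouse pancreatic tumours. The family was taken as every protein-coding mouse gene named Mmp, Adamts or Timp with a number, whatever its level. It comprised 45 of the 51707 genes measured and of the 21777 protein-coding ones: 22 Mmp, 19 Adamts and 4 Timp genes. A further symbol of that form, Mmp1a, is annotated as a polymorphic pseudogene in the annotation used and was not counted.

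The tumours were pancreatic ductal adenocarcinomas that grew in the pancreas of C57BL/6J mice from transplanted T-LOH KPC organoids. The labels do not spell out the alleles or the meaning of KPC and T-LOH. Mice received neratinib, an irreversible inhibitor of the ERBB receptor tyrosine kinases, or vehicle for 2 weeks. PDPN+ cells, which carry podoplanin and stand for cancer-associated fibroblasts, gave 4 neratinib libraries (mice N53178, N53180, N53184 and N53194) and 4 vehicle libraries (mice V53175, V53179, V53185 and V53188). EpCAM+ cells, which stand for the tumour epithelium, gave 5 neratinib libraries (mice N53178, N53180, N53184, N53193 and N53194) and 6 vehicle libraries (mice V53175, V53176, V53179, V53185, V53188 and V53192). In these names N stands for a neratinib and V for a vehicle mouse. All groups share the strain and the label of transplanted T-LOH KPC organoids, and no library stands for normal pancreas. The sources used here state neither the dose, nor the age of the mice, nor how many organoid lines were used. Reading the 5 digits of a label as a mouse is an inference, and the p-values rest on it. On that reading 8 of the 11 mice gave both populations and no mouse had both treatments.

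Metalloproteinases of the Mmp family are zinc enzymes that cleave collagens, proteoglycans, adhesion proteins and growth factor precursors, and most are secreted as inactive precursors. ADAMTS proteases are secreted relatives that cut large proteoglycans such as versican and aggrecan or trim procollagens before fibres form. TIMPs bind the active site of these enzymes and block it, and in pancreatic cancer fibroblasts are known as a main source of both the enzymes and their inhibitors.

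Libraries held 30.3 to 48.1 M reads (M, mega) assigned to genes in PDPN+ cells and 39.4 to 75.4 M in EpCAM+ cells. A gene with 0 reads may still stand at up to 3 reads, which was 0.0398 to 0.0989 CPM (counts-per-million) depending on the library and covers counting error only. The 6 fibroblast markers (Col1a1, Col1a2, Dcn, Lum, Pdgfra and Pdgfrb) summed to 4729 to 7800 TPM (transcripts-per-million, a level corrected for transcript length) in PDPN+ libraries, against 7.80 to 77.9 TPM in EpCAM+ libraries. The 5 epithelial markers (Epcam, Cdh1, Krt8, Krt18 and Krt19) summed to 274 to 1197 TPM in PDPN+ libraries, against 14311 to 20571 TPM in EpCAM+ libraries. The epithelial sum of PDPN+ libraries was almost wholly made of keratins, while Epcam itself reached at most 0.540 TPM there. Podoplanin also marks lymphatic endothelium and mesothelium: lymphatic markers summed to 0.679 to 12.2 TPM in PDPN+ libraries and 0.126 to 0.810 TPM in EpCAM+ libraries, and mesothelial markers to 268 to 1059 TPM and 573 to 1012 TPM. The EpCAM+ mesothelial sum was nearly all Msln, with a mean of 321 TPM in PDPN+ and 732 TPM in EpCAM+ libraries, while Wt1, Upk3b and Lrrn4 averaged 73.6, 203 and 35.2 TPM in PDPN+ libraries and 0.195, 1.77 and 0.587 TPM in EpCAM+ libraries. Of the reads, mitochondrial genes made up 6.14 to 19.4% in PDPN+ libraries and 2.15 to 2.89% in EpCAM+ libraries. Genes reaching 10 reads numbered 12102 and 11924 in the PDPN+ vehicle libraries of mice V53175 and V53188, and 13691 to 18602 in the other 6 PDPN+ libraries.

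The family was expressed mainly by PDPN+ cells, where inhibitor RNA stood above protease RNA in 7 of 8 libraries, and EpCAM+ cells held a short list of proteases with little inhibitor RNA. In PDPN+ libraries 17 of the 45 genes had a mean level of at least 10 TPM and 7 had at least 100 TPM, against 8 and 0 in EpCAM+ libraries. The summed Timp level was 2373 ± 623 TPM in PDPN+ neratinib libraries and 3881 ± 814 TPM in PDPN+ vehicle libraries (SD, n = 4 each). In EpCAM+ cells that sum was 48.5 ± 26.9 TPM in neratinib libraries (SD, n = 5) and 48.8 ± 14.7 TPM in vehicle libraries (SD, n = 6). The summed Mmp level was 983 ± 260 and 830 ± 240 TPM in PDPN+ neratinib and vehicle libraries, and 216 ± 47.4 and 202 ± 36.4 TPM in EpCAM+ neratinib and vehicle libraries. Thus the ratio of Timp RNA to Mmp and Adamts RNA was 0.944 to 3.20 in PDPN+ neratinib libraries and 2.22 to 6.24 in PDPN+ vehicle libraries, and 0.0886 to 0.249 in EpCAM+ neratinib libraries and 0.145 to 0.259 in EpCAM+ vehicle libraries. The ranges of the ratio in PDPN+ and EpCAM+ cells did not overlap, and within each population those of neratinib and vehicle overlapped. In such bulk samples fewer cells of a type and less RNA per cell cannot be told apart.

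**Figure D1:**
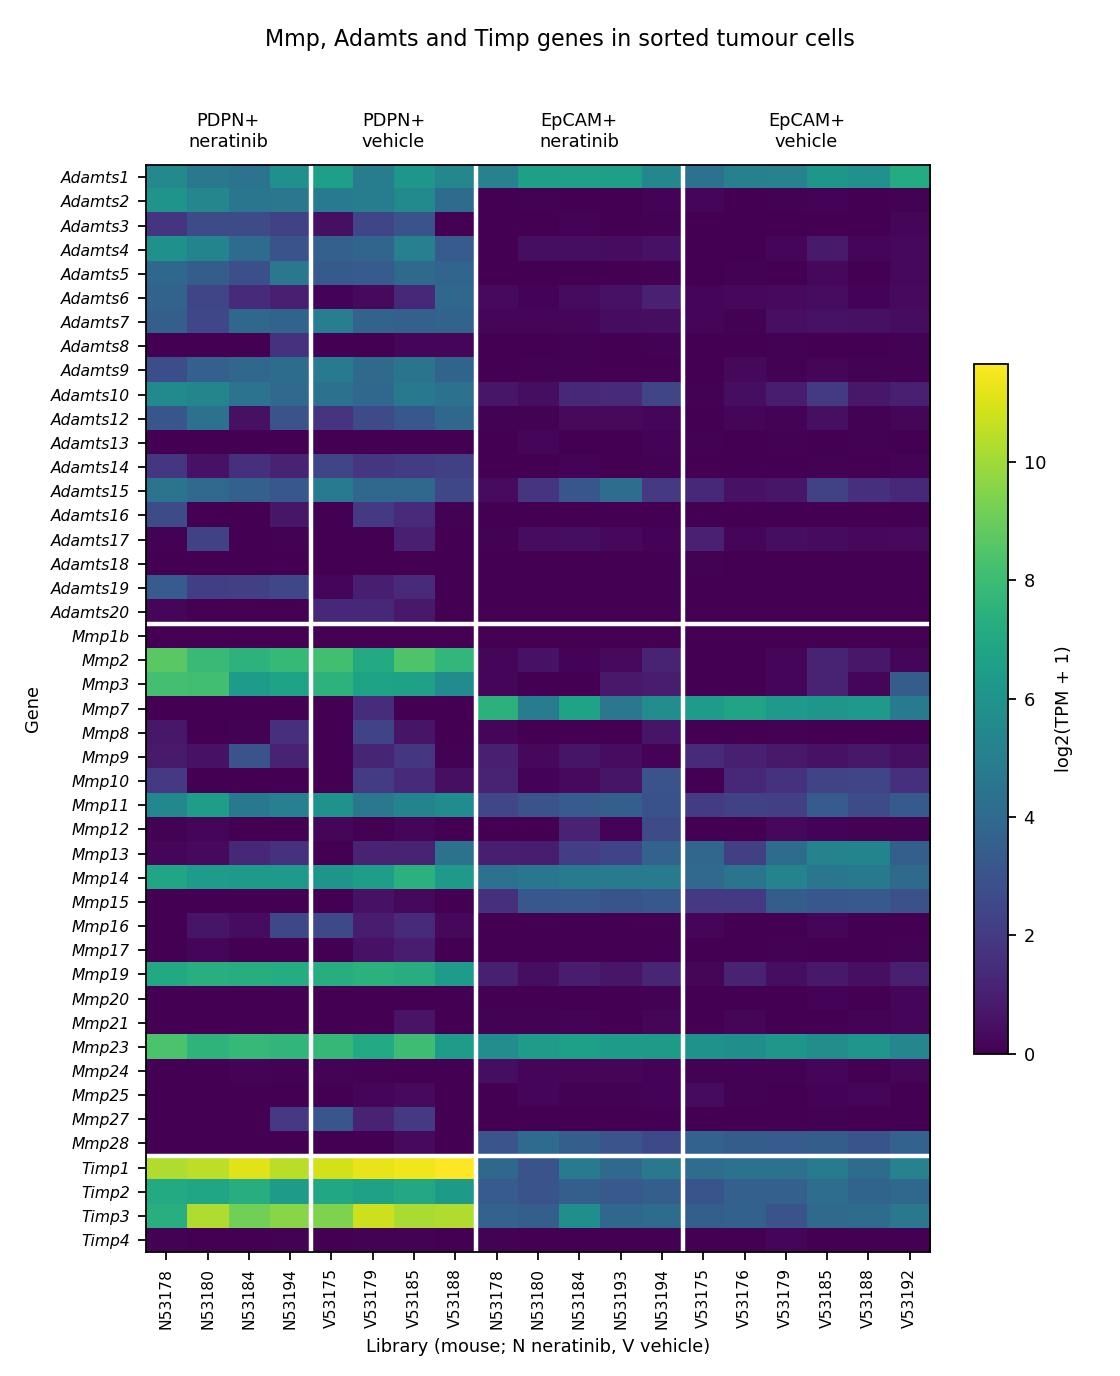
Level of each of the 45 genes (rows, grouped as Adamts, Mmp and Timp) in each of the 19 libraries (columns, by population, treatment and mouse number), as log2(TPM + 1) from dark (0) to yellow. More rows are bright in PDPN+ columns, with Timp1 and Timp3 brightest, while Mmp7, Mmp15 and Mmp28 are lit in EpCAM+ columns and Adamts1, Mmp14 and Mmp23 in both.

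Of the inhibitors, 3 were read in both populations. Timp1, a secreted inhibitor that also acts as a growth factor-like signal, led in PDPN+ cells with 1246, 1455, 2163 and 1401 TPM in neratinib libraries and 1921, 2433, 2681 and 3229 TPM in vehicle libraries. In EpCAM+ cells Timp1 had 14.5, 6.79, 27.0, 15.0 and 24.5 TPM in neratinib libraries and 16.6 to 34.9 (median 19.9) TPM in vehicle libraries. The lowest PDPN+ library was thus far above the highest EpCAM+ library. Timp3, which is held in the matrix by proteoglycans and blocks ADAMTS enzymes best, had 156, 1239.7, 571 and 768 TPM in PDPN+ neratinib libraries and 671, 1744, 1155 and 1252 TPM in PDPN+ vehicle libraries. It had 11.5, 10.7, 55.8, 14.0 and 16.4 TPM in EpCAM+ neratinib libraries and 6.97 to 23.9 (median 13.2) TPM in EpCAM+ vehicle libraries. Among PDPN+ libraries Timp3 was lowest in neratinib mouse N53178 and highest in vehicle mouse V53179. Timp2, which blocks Mmp2 and also takes part in its activation on the cell surface, had 138, 116, 152 and 86.7 TPM in PDPN+ neratinib libraries and 124, 101, 130.4 and 81.6 TPM in PDPN+ vehicle libraries. Its EpCAM+ levels were 9.48, 6.84, 10.7, 8.57 and 10.4 TPM with neratinib and 7.23 to 16.8 (median 11.8) TPM with vehicle. Timp4 did not exceed 0.104 TPM in any library and was not tested.

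Most Mmp RNA of PDPN+ cells came from 5 genes. Mmp2, gelatinase A, took 27.8 ± 5.44% of it, Mmp23 22.5 ± 4.52%, Mmp19 16.7 ± 4.64%, Mmp3 15.7 ± 6.50% and Mmp14 10.8 ± 3.03% (SD, n = 8 for each). Mmp2 had 411, 229.5, 185 and 221 TPM in PDPN+ neratinib libraries and 275, 139.9, 352 and 207 TPM in PDPN+ vehicle libraries, and no more than 1.25 TPM in any EpCAM+ library. Mmp14, the membrane-bound enzyme that activates pro-Mmp2 on the cell surface, had 118, 85.6, 80.8 and 76.4 TPM in PDPN+ neratinib libraries and 65.4, 90.3, 172 and 75.4 TPM in PDPN+ vehicle libraries. In EpCAM+ cells Mmp14 had 19.3, 23.1, 26.2, 27.3 and 26.3 TPM with neratinib and 15.0 to 35.9 (median 22.1) TPM with vehicle. So the activator was read in both populations, with every EpCAM+ value below every PDPN+ value, whereas its substrate was near 0 in EpCAM+ cells. Mmp3, stromelysin 1, had 292, 279, 83.5 and 106 TPM in PDPN+ neratinib libraries and 182, 107, 101 and 49.0 TPM in PDPN+ vehicle libraries. It stayed at or below 1.15 TPM in EpCAM+ libraries except that of vehicle mouse V53192, which had 10.0 TPM. Mmp19, a secreted enzyme active on basement membrane proteins, had 133, 157, 154 and 148 TPM in PDPN+ neratinib libraries and 152, 175, 151 and 82.6 TPM in PDPN+ vehicle libraries, against at most 1.42 TPM in EpCAM+ cells. Mmp19 was the most even of these 4 genes, with a lower value in vehicle mouse V53188 alone.

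On average EpCAM+ cells drew most of their Mmp RNA from Mmp7 and Mmp23, at 34.2 ± 15.9% and 33.4 ± 10.1% of it (SD, n = 11 each). Mmp7, matrilysin, is an enzyme of glandular epithelia and is known from pancreatic ducts that undergo metaplasia. It had 177, 28.9, 108, 23.9 and 51.0 TPM in EpCAM+ neratinib libraries and 25.8 to 113 (median 75.1) TPM in EpCAM+ vehicle libraries. It had 0 reads in 7 of 8 PDPN+ libraries and 67 reads, 1.78 TPM, in that of vehicle mouse V53179. Mmp23, a membrane-anchored protease that lacks the usual hemopexin domain, was high in both populations: 328, 192, 226 and 205 TPM in PDPN+ neratinib libraries and 218, 141, 261 and 85.8 TPM in PDPN+ vehicle libraries, against 51.7, 86.9, 94.3, 87.4 and 79.9 TPM in EpCAM+ neratinib libraries and 41.2 to 70.1 (median 56.9) TPM in EpCAM+ vehicle libraries. Mmp28, epilysin, had 7.30, 16.0, 10.7, 7.38 and 5.06 TPM with neratinib and 7.13 to 11.8 (median 9.91) TPM with vehicle in EpCAM+ cells, and 30 reads in 1 PDPN+ library (vehicle mouse V53185) with 0 in the other 7. Mmp15, another membrane-type enzyme, had 2.03, 7.91, 8.48, 7.28 and 8.39 TPM in EpCAM+ neratinib libraries and 2.77 to 9.98 (median 7.30) TPM in EpCAM+ vehicle libraries, and at most 0.486 TPM in PDPN+ cells. Its 3 low EpCAM+ libraries were those of neratinib mouse N53178 (2.03 TPM) and vehicle mice V53175 and V53176 (2.77 and 2.94 TPM), and the other 8 lay between 6.54 and 9.98 TPM.

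Among the ADAMTS proteases, Adamts1 stood alone in EpCAM+ cells. This aggrecan- and versican-cleaving enzyme made up 80.3 to 97.2% of the Adamts RNA of each EpCAM+ library, against 11.1 to 37.4% in PDPN+ libraries. Adamts1 had 44.1, 24.4, 21.0 and 57.5 TPM in PDPN+ neratinib libraries and 95.9, 29.2, 69.7 and 41.4 TPM in PDPN+ vehicle libraries, against 35.2, 98.5, 101, 95.1 and 40.5 TPM in EpCAM+ neratinib libraries and 19.4 to 145 (median 46.2) TPM in EpCAM+ vehicle libraries. All 4 groups overlapped. Adamts2, the main procollagen I N-proteinase, had 64.5, 40.8, 22.9 and 23.7 TPM in PDPN+ neratinib libraries and 27.2, 28.7, 46.3 and 16.4 TPM in PDPN+ vehicle libraries, and at most 0.124 TPM in EpCAM+ cells. Adamts5, an aggrecanase, had 14.2, 9.94, 6.22 and 23.6 TPM in PDPN+ neratinib libraries and 8.89, 9.28, 15.5 and 13.0 TPM in PDPN+ vehicle libraries, against at most 0.202 TPM in EpCAM+ cells. Both genes were thus read throughout PDPN+ libraries and close to 0 in EpCAM+ ones. Adamts4, Adamts7, Adamts9, Adamts10 and Adamts15 also averaged between 13.4 and 25.1 TPM in PDPN+ cells. Of these Adamts15 alone had more than 5 TPM in any EpCAM+ library, with 7.76 and 17.2 TPM in neratinib mice N53184 and N53193.

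**Figure D2:**
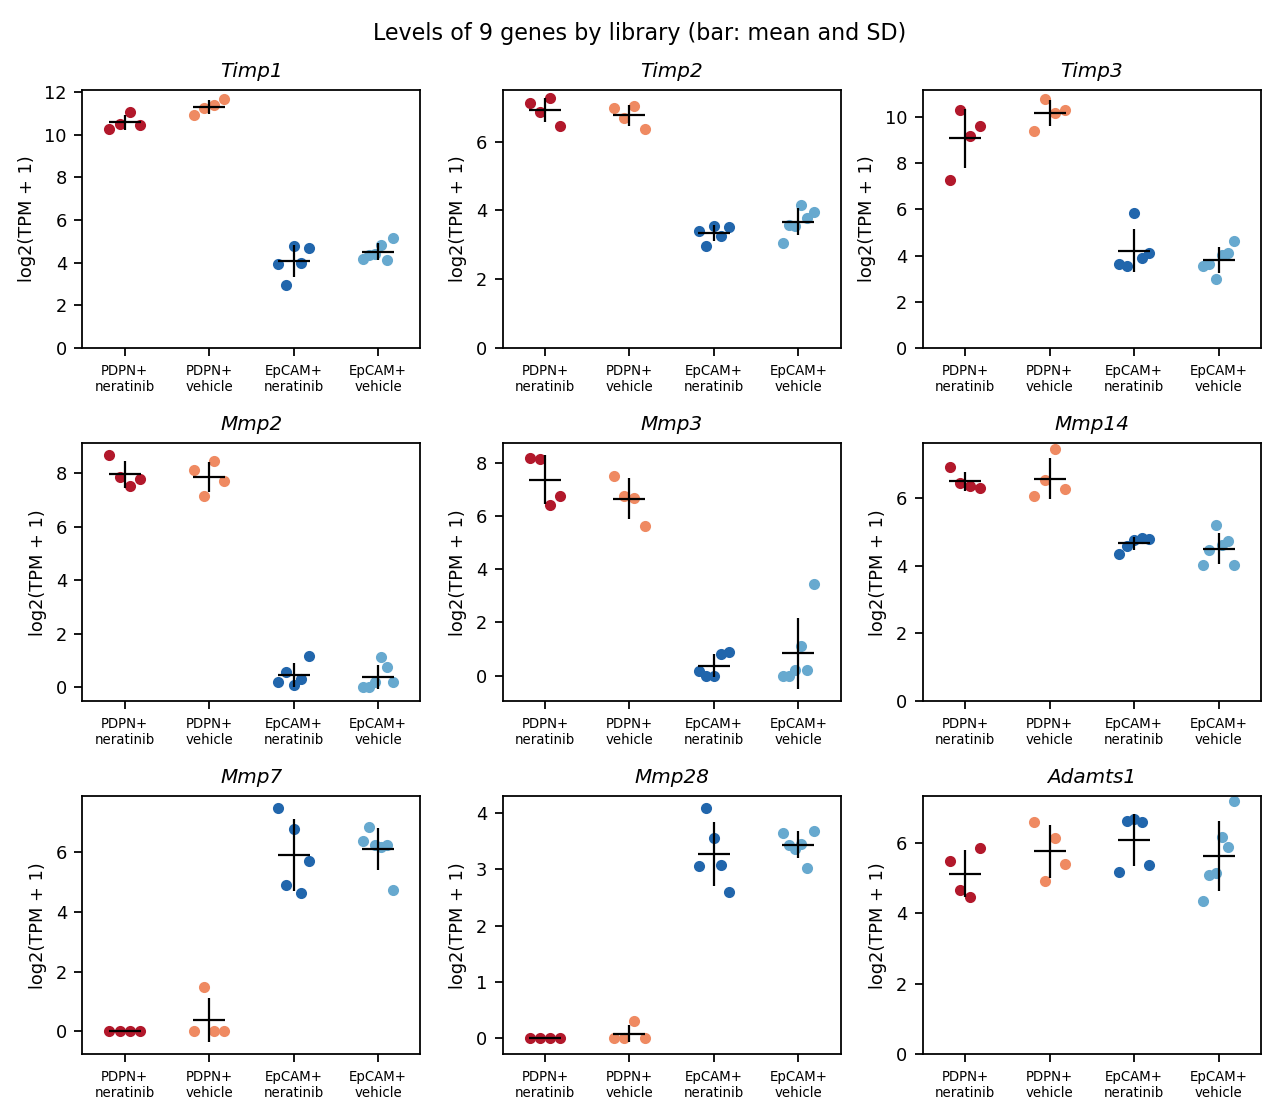
Log2(TPM + 1) of 9 genes in each library (points) of the 4 groups, with the mean and SD of each group as bars. The 3 Timp genes, Mmp2, Mmp3 and Mmp14 lie higher in PDPN+ than in EpCAM+ libraries, Mmp7 and Mmp28 lie at or near 0 in PDPN+ libraries, and the groups of Adamts1 overlap.

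To ask which population holds each gene, PDPN+ libraries were set against EpCAM+ libraries over all 19 libraries with edgeR's quasi-likelihood test. PDPN+ cells had more RNA of the 3 inhibitors tested, of the gelatinase Mmp2, of the stromelysins Mmp3 and Mmp11 and of nearly every ADAMTS protease tested, and less of Mmp7, Mmp15 and Mmp28. Of the 45 genes 37 had enough reads to be tested. A gene read in a single population enters that test through it, so the counts describe the family and do not by themselves support a difference of it. With an adjusted p under 0.05, 26 were higher in PDPN+ cells, where 24.3% of the 19626 genes tested were higher, and 3 were lower, where 25% of all genes tested were lower. By family, 14 of 16 Adamts genes, 9 of 18 Mmp genes and all 3 tested Timp genes were higher, and the 3 lower genes were all Mmp genes. The median log2 difference over the 37 genes was 5.19, against -0.13 over all genes tested.

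Among the genes higher in PDPN+ cells the largest differences belonged to ADAMTS proteases and Mmp2. Adamts2 was higher by 9.98 on the log2 scale (SE 0.59, adjusted p = 1.7e-10, edgeR), Mmp2 by 9.30 (SE 0.94, adjusted p = 1.94e-07) and Adamts5 by 9.12 (SE 0.74, adjusted p = 1.21e-08). Adamts19, an ADAMTS protease with a part in heart valve development, was higher by 9.63 (SE 1.14, adjusted p = 1.37e-06), with only 4 reads in all EpCAM+ libraries together, and on average most of its PDPN+ RNA was of retained-intron transcripts. For the inhibitors the differences were 7.20 for Timp1 (SE 0.28, adjusted p = 2.93e-12), 6.22 for Timp3 (SE 0.42, adjusted p = 9.71e-10) and 3.83 for Timp2 (SE 0.16, adjusted p = 3.16e-12). Mmp19 and Mmp3 were higher by 7.84 (SE 0.36, adjusted p = 7.37e-12) and 8.06 (SE 1.24, adjusted p = 2.8e-05). Smaller differences were found for the genes that both populations express, Mmp14 (2.69, SE 0.19, adjusted p = 1.22e-09) and Mmp23 (2.22, SE 0.19, adjusted p = 2.92e-08).

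Lower in PDPN+ cells were Mmp7 (-10.61, SE 1.38, adjusted p = 1.04e-05), Mmp28 (-8.59, SE 1.19, adjusted p = 2.01e-05) and Mmp15 (-6.84, SE 1.01, adjusted p = 1.75e-05). The sizes of the first 2 are not exact, because the PDPN+ neratinib libraries held no read of either gene. Counted at 3 reads over that group, the differences were -9.13 for Mmp7 and -7.04 for Mmp28. The fitted value of Mmp28 was -11.49 without the PDPN+ vehicle library of mouse V53185, the sole one with reads, and that of Mmp7 was -14.21 without that of mouse V53179. Adamts1 did not differ beyond its error: its difference was 0.04 with a 95% interval of -0.68 to 0.75 (adjusted p = 0.942), and its sign turned in 16 of 27 alternatives. The other 7 that did not pass were Mmp9, Mmp10, Mmp12, Mmp13, Mmp24, Mmp25 and Adamts17, 6 of them at mean levels of at most 2.15 TPM in both populations. Mmp13, collagenase 3, passed as lower in PDPN+ cells without the library of vehicle mouse V53188 (-2.91), which had 19.5 TPM of it, against at most 2.27 TPM in the other 7. Mmp10 passed as lower without neratinib mouse N53178 (-3.58). Mmp27 lost its call without neratinib mouse N53194 (3.32). With the mouse as a block, Adamts6 (3.09), Adamts20 (6.50) and Mmp27 (5.04) lost theirs. The 8 genes left untested for low counts were Adamts8, Adamts13, Adamts18, Mmp1b, Mmp17, Mmp20, Mmp21 and Timp4, and Mmp1b had no read in any library.

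**Figure D3:**
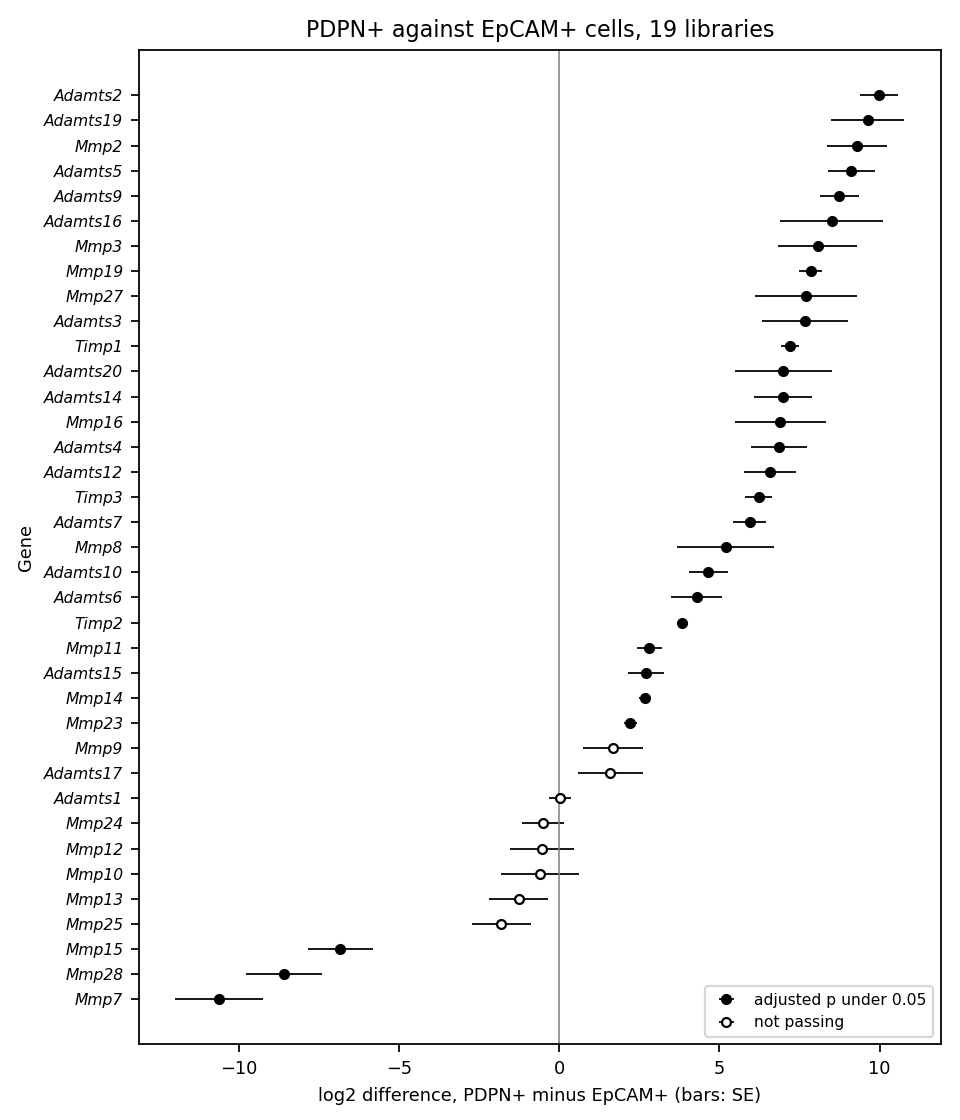
Log2 difference (PDPN+ minus EpCAM+) of the 37 tested genes with its SE; filled points have an adjusted p under 0.05. The 26 filled points at the right run up to 9.98 (Adamts2), and the 3 at the left are Mmp15, Mmp28 and Mmp7 (-10.61).

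Markers of the other population were also read and are set beside these values. The fibroblast markers of EpCAM+ libraries averaged 0.377% of their PDPN+ level. EpCAM+ levels of Mmp2 and Mmp3 were 0.157% and 0.801% of the PDPN+ means, and Timp1 stood at 0.983%. The value of Mmp3 rested on vehicle mouse V53192, and was 0.215% without that library. Those of Mmp14, Mmp23, Timp2 and Adamts1 were 24.5%, 32.7%, 9.29% and 139%, far above the marker share. In the other direction the epithelial markers of PDPN+ libraries averaged 4.86% of their EpCAM+ level, and Mmp7 and Mmp28 stood at 0.294% and 0.305%. That marker share is carried by the keratins, at 3.17 to 6.44%, whereas Epcam stood at 0.0414% and Cdh1 at 0.0885%. Mmp7 and Mmp28 thus lay below the keratins and above Epcam and Cdh1, each on the reads of 1 PDPN+ library, and were at 0 without it. Macrophage markers summed to 13.3 to 149 TPM in PDPN+ libraries and 28.0 to 62.5 TPM in EpCAM+ libraries, and neutrophil markers to 0.113 to 42.1 TPM and 2.18 to 98.4 TPM. Cd68 held a mean of 32.7 of the 43.0 TPM of the EpCAM+ macrophage sum, and 22.6 TPM in PDPN+ libraries. Mrc1 and C1qc also averaged more in EpCAM+ libraries. Adgre1, Csf1r, C1qa and C1qb averaged 3.48, 16.8, 6.88 and 8.89 TPM in PDPN+ libraries, against 0.350, 2.31, 1.14 and 2.20 TPM in EpCAM+ libraries. Mmp8, Mmp9 and Mmp12, enzymes of neutrophils and macrophages, had mean levels of at most 1.67 TPM in either population, and the part of those cells in them was not tested. Their highest value was 6.92 TPM, for Mmp9 in PDPN+ neratinib mouse N53184. That library had the highest macrophage sum (149 TPM, with 2 of the 7 markers at 0) and the lowest neutrophil sum (0.113 TPM) of all libraries. In EpCAM+ cells their highest value was 5.58 TPM, for Mmp12 in neratinib mouse N53194. The macrophage and neutrophil sums of that library were 43.2 and 7.50 TPM.

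Mmp3 and Mmp7, which had opposite patterns, lie in the same run of Mmp genes without being adjacent. In the RefSeq order of genes on mouse chromosome 9 an unbroken run of 10 protein-coding genes, all of them Mmp genes, reads Mmp13, Mmp12, Mmp1b, Mmp3, Mmp1a, Mmp10, Mmp8, Mmp27, Mmp20 and Mmp7. Within it Mmp3 was a gene of PDPN+ cells, with a mean of 150.0 TPM against 1.20 TPM in EpCAM+ cells. Mmp7, at the far end of the same run, was a gene of EpCAM+ cells, with a mean of 0.222 TPM in PDPN+ cells against 75.5 TPM. Mmp13 averaged 3.26 TPM in PDPN+ cells and 12.6 TPM in EpCAM+ cells, and Mmp10 averaged 1.01 and 2.15 TPM. Neither passed between the populations in the fit of all 19 libraries. Mmp8 and Mmp27 passed there as higher in PDPN+ cells, at low levels. Their means were 0.926 and 1.84 TPM in PDPN+ cells, against 0.0668 and 0.00784 TPM in EpCAM+ cells.

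Promoters of this run are shown because several of them hold a sequence that was not in the listed promoters of the other members. TGAGTCA, a binding sequence of AP-1 (the Fos and Jun factors), was searched on both strands, where its reverse complement is TGACTCA, in the 300 bases from 250 before to 50 after each RefSeq start. Promoters were listed for 31 of the 45 members, and for Mmp2, Mmp9 and Mmp19, among others, none was. Mmp1a, not a member, was not searched. The sequence lay in 5.2% of all 32851 mouse promoters and in 0 of the 23 promoters listed for 22 members outside the run. Within the run it lay in 6 of the 11 promoters listed for 9 genes (54.5%). The 6 were promoters of Mmp13, Mmp12, Mmp1b, Mmp3, Mmp10 and Mmp7, with the match at 35 to 93 bases before the start. Mmp7 and Mmp12 each have another listed promoter, and it held no match. A match is a description of the sequence and no evidence that the factor binds. The promoters with a match whose genes averaged at least 1 TPM in either population are shown with the match in capitals, 5' to 3' on the gene's strand, from RefSeq on GRCm38.p6, followed by that of Mmp14, a member on another chromosome that holds no match. Mmp3 lies at chr9:7445572-7445871, Mmp7 at chr9:7691840-7692139, Mmp13 at chr9:7272264-7272563, Mmp10 at chr9:7502092-7502391 and Mmp14 at chr14:54431348-54431647, all on the plus strand.
Mmp3: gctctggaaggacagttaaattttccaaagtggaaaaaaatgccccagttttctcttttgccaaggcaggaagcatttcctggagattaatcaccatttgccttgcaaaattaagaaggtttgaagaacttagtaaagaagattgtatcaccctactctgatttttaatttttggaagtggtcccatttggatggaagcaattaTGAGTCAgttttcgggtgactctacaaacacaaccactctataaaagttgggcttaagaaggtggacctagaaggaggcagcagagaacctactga
Mmp7: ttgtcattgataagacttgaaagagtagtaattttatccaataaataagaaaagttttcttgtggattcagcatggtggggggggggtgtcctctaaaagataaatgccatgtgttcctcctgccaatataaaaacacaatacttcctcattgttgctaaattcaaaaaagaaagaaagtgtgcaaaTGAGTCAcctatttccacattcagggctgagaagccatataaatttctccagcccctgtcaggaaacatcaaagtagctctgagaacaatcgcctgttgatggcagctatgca
Mmp13: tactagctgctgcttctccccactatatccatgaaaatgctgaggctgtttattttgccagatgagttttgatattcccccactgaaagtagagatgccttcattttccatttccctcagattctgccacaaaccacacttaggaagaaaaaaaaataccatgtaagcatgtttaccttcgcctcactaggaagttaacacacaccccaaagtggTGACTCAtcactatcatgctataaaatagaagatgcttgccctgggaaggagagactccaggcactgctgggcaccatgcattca
Mmp10: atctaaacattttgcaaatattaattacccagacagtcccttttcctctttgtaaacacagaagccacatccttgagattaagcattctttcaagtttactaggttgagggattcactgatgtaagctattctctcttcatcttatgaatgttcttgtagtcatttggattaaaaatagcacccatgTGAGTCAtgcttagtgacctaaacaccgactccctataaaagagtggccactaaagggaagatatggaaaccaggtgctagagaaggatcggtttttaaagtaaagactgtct
Mmp14: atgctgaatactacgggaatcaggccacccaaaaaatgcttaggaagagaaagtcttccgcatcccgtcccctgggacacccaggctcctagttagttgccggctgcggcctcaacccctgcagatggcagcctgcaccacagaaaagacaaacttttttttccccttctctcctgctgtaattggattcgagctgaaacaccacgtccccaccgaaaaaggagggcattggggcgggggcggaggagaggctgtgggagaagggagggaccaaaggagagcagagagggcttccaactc
In Mmp13 the match is on the opposite strand, so its reverse complement is printed. Mmp3 and Mmp7 thus both had a listed promoter with the same 7 letters, although Mmp3 was read in PDPN+ cells and Mmp7 in EpCAM+ cells.

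The gene sums hide some differences in transcript use. Mmp2 in PDPN+ cells was split between its coding transcripts Mmp2-201 (60.5 ± 10.1% of its TPM) and Mmp2-203 (37.2 ± 11.7%, SD, n = 8 each). Timp1-201 made up 67.4 ± 5.19% of Timp1 in PDPN+ cells (n = 8) and 53.3 ± 6.93% in EpCAM+ cells (n = 11), the rest being Timp1-202. Retained-intron transcripts together took 79.1 ± 22.6% of Adamts10, 28.8 ± 17.1% of Adamts9 and 26.2 ± 10.9% of Mmp19 in PDPN+ cells (SD, n = 8 each). They also took 38.3 ± 16.5% of Adamts12 and 31.9 ± 27.5% of Adamts7 there (SD, n = 8 each). Of Adamts19 they took 65.4 ± 38.4% there (SD, n = 7 libraries with any of its RNA). They took 16.3 ± 2.97% of Mmp23 in PDPN+ cells (SD, n = 8) and 26.3 ± 3.75% in EpCAM+ cells (SD, n = 11). In EpCAM+ cells a non-coding processed transcript, Mmp28-205, took 50.6 ± 9.82% of Mmp28 (SD, n = 11). Of Adamts9 in PDPN+ cells such a transcript took a further 32.3 ± 24.2%, and coding transcripts took 38.9 ± 19.8% (SD, n = 8 each). Transcripts annotated for nonsense-mediated decay took 38.9 ± 16.4% of Mmp11 and 68.8 ± 28.0% of Adamts6 in PDPN+ cells (SD, n = 8 each). In EpCAM+ cells they took 3.37 ± 5.95% and 63.1 ± 35.2% (SD, n = 11 each). Such RNA adds to the gene's level without coding for the full protein. Since the counting is not stated to use strand, levels of genes that share exon bases with a neighbour on the opposite strand are uncertain: 155 bases of Mmp11 with Chchd10, 789 of Mmp19 with Tmem198b, 1381 of Adamts9 with A730049H05Rik, 466 of Mmp28 with 1700020L24Rik and 1733 of Timp3 with Syn3.

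To ask whether neratinib altered the family in the fibroblasts, PDPN+ neratinib libraries were compared with PDPN+ vehicle libraries. No member passed edgeR's quasi-likelihood test: 0 of the 30 tested had an adjusted p under 0.05, as had 0% of the 14437 genes tested, and 0 had an unadjusted p under 0.05, where 2.29% of all genes had one. The median log2 difference was 0.15, against 0.06 over all genes, and 17 of the 30 were positive, where 52.8% of all genes were. DESeq2 and limma called 0 members too, where they called 0.0831% and 0.00719% of all genes tested. In simulated data the edgeR test called 5.62% of log2 changes of 2 in this comparison. The lack of calls thus does not show a lack of effect.

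The 4 members with the smallest p were Adamts19, Timp1, Adamts9 and Mmp23. Adamts19 had 9.15, 3.52, 3.58 and 4.51 TPM in PDPN+ neratinib libraries, against 0.134, 0.954, 1.64 and 0 TPM in PDPN+ vehicle libraries. All 4 neratinib values lay above all 4 vehicle values, and the 2 lowest vehicle values came from mice V53175 and V53188, which had the fewest genes detected. The log2 difference was 3.24 (SE 1.48, 95% interval -0.03 to 6.51, unadjusted p = 0.0516, adjusted p = 0.9998, edgeR), and 2.29 without those 2 libraries. Timp1 had a log2 difference of -0.65 (SE 0.31, 95% interval -1.34 to 0.04, unadjusted p = 0.0624, adjusted p = 0.9998, edgeR). Of its neratinib libraries given above, 3 lay below all vehicle libraries and that of mouse N53184 lay among them. The value was -0.39 without the library of vehicle mouse V53188, which had the highest Timp1 level.

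Adamts9, a versican-cleaving protease, had 5.93, 10.8, 13.2 and 16.7 TPM in PDPN+ neratinib libraries and 27.0, 15.4, 21.2 and 12.7 TPM in PDPN+ vehicle libraries. The groups overlapped, and the log2 difference was -0.87 (SE 0.48, unadjusted p = 0.0944, adjusted p = 0.9998, edgeR). Mmp23 had a log2 difference of 0.63 (SE 0.35, unadjusted p = 0.0988, adjusted p = 0.9998), with the lowest of its values in vehicle mouse V53188. Timp3 and Timp2 had differences of -0.78 (SE 0.49, unadjusted p = 0.139) and 0.16 (SE 0.25, unadjusted p = 0.551). Mmp14 had the smallest difference of the 30, -0.02 with a 95% interval of -0.67 to 0.62. Mmp2, its substrate, was at 0.15 (95% interval -0.70 to 1.00). Fibroblast markers summed to 5573 to 7358 TPM in PDPN+ neratinib and 4729 to 7800 TPM in PDPN+ vehicle libraries, and epithelial markers to 274 to 1156 TPM and 296 to 1197 TPM, so neither sum separated the treatments.

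**Figure D4:**
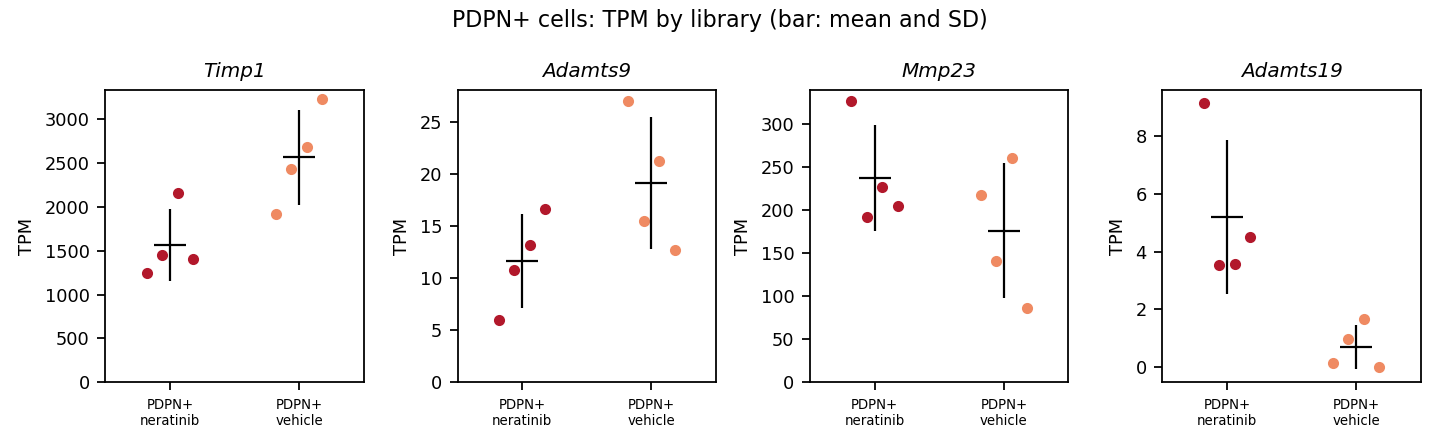
TPM of Timp1, Adamts9, Mmp23 and Adamts19 in each PDPN+ library (points), with the mean and SD of each group as bars, neratinib at the left and vehicle at the right. The groups overlap for Timp1, Adamts9 and Mmp23, and for Adamts19 the neratinib libraries lie at 3.52 to 9.15 TPM and the vehicle libraries at 0 to 1.64 TPM.

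The same question was asked of the tumour epithelium, where EpCAM+ neratinib libraries were compared with EpCAM+ vehicle libraries. None of the 25 members tested had an adjusted p under 0.05 with edgeR, nor did any of all 17200 genes (0%). There too both other tools called 0 members, where DESeq2 called 0.0581% of all genes and limma 0%. At an unadjusted p under 0.05 there were 5 members, where 3.05% of all genes had such a p: Mmp13 and Timp2 with negative differences, and Adamts6, Adamts15 and Mmp23 with positive ones. Their adjusted p was 0.999 in each case. The median log2 difference over the 25 was 0.04, against -0.00086 over all genes, and 14 of the 25 were positive, where 49.8% of all genes were.

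Mmp13, which degrades fibrillar collagen, had 0.963, 0.858, 3.31, 4.04 and 11.7 TPM in EpCAM+ neratinib libraries and 3.60 to 37.5 (median 15.0) TPM in EpCAM+ vehicle libraries. Of the neratinib values 3 were below all vehicle values, and the other 2, from mice N53193 and N53194, lay among them. Its log2 difference was -2.30 (SE 0.75, 95% interval -3.95 to -0.65, unadjusted p = 0.0106, adjusted p = 0.999, edgeR). Over 17 alternatives its adjusted p ranged from 0.192 to 1. Timp2 had a log2 difference of -0.47 (SE 0.19, unadjusted p = 0.0297, adjusted p = 0.999, edgeR), and its groups, given above, overlapped. Adamts15, a versican-cleaving enzyme, had 0.263, 2.43, 7.76, 17.2 and 2.85 TPM in EpCAM+ neratinib libraries and 0.480 to 3.75 (median 1.45) TPM in EpCAM+ vehicle libraries. Its mean rested on mice N53184 and N53193, and the log2 difference was 1.85 (SE 0.81, unadjusted p = 0.0415, adjusted p = 0.999, edgeR). Adamts6, a protease that processes microfibril-associated proteins, stood at 0.225, 0.0730, 0.275, 0.501 and 1.10 TPM with neratinib and 0.0900 to 0.291 (median 0.199) TPM with vehicle, and differed by 1.23 (SE 0.54, unadjusted p = 0.0415).

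Mmp23, named here after its value was seen, had a positive difference in both populations, at 0.39 in EpCAM+ cells (SE 0.18, unadjusted p = 0.0464, adjusted p = 0.999, edgeR). Of its 5 EpCAM+ neratinib values 4 lay above all 6 vehicle values, and that of mouse N53178 lay among them. Mmp7, the leading Mmp of this population, had a difference of 0.02 with a 95% interval of -1.16 to 1.20. Timp1 and Timp3 were at -0.42 (SE 0.32, unadjusted p = 0.223) and 0.61 (SE 0.46, unadjusted p = 0.213), and Timp3 was at -0.14 without neratinib mouse N53184. Acinar markers summed to 13.8 to 37.0 TPM in EpCAM+ neratinib libraries and 13.4 to 522 TPM in EpCAM+ vehicle libraries, macrophage markers to 39.9 to 62.5 TPM and 28.0 to 50.3 TPM, and fibroblast markers to 12.1 to 77.9 TPM and 7.80 to 43.8 TPM. The part of these cells in the values above was not tested.

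**Figure D5:**
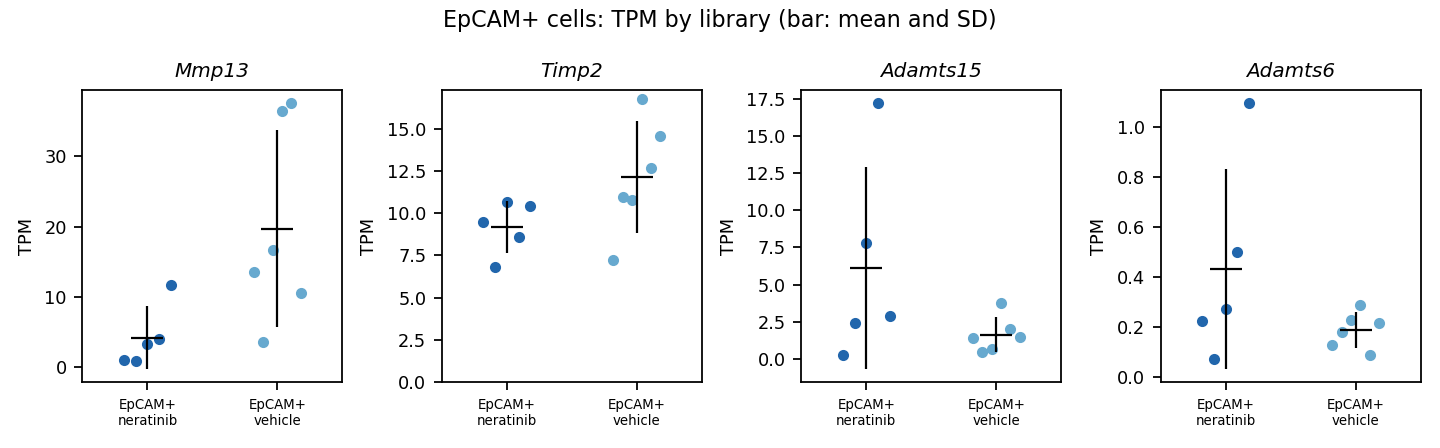
TPM of Mmp13, Timp2, Adamts15 and Adamts6 in each EpCAM+ library (points), with the mean and SD of each group as bars, neratinib at the left and vehicle at the right. The groups overlap for each of the 4 genes; the highest Mmp13 value is 11.7 TPM with neratinib and 37.5 TPM with vehicle.

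Whether neratinib acted differently in the 2 populations was tested as an interaction, in which the EpCAM+ difference (neratinib minus vehicle) is subtracted from the PDPN+ one. With edgeR 0 of the 37 members passed, where 0.0662% of all genes did. At an unadjusted p under 0.05 there were 6 members, where 11.2% of all genes had such a p. The smallest belonged to Mmp7 (-7.18, SE 2.54, unadjusted p = 0.0125, adjusted p = 0.246), Mmp28 (-5.68, SE 2.02, unadjusted p = 0.013, adjusted p = 0.253) and Mmp25 (-4.48, SE 1.83, unadjusted p = 0.0244, adjusted p = 0.334), followed by Adamts5 (2.82, SE 1.17, unadjusted p = 0.0264, adjusted p = 0.345). The Mmp7 value rested on the 67 reads of 1 PDPN+ vehicle library and was -0.02 without it. Likewise the Mmp28 value rested on the 30 reads of another and was 0.10 without that one. Mmp25, a membrane-anchored enzyme of neutrophils, had 1 read in all PDPN+ neratinib libraries and 61 in the vehicle ones. Of these 21 came from V53179 and 40 from V53185, with 0 in V53175 and V53188. Adamts5 had 25 reads in all EpCAM+ neratinib libraries and 179 in the EpCAM+ vehicle ones. Its interaction value was 0.17 to 4.38 over 25 alternatives. Without the PDPN+ vehicle libraries of mice V53175 and V53188, Mmp15 passed (-4.71), in a setting where 2.62% of all genes passed. The libraries left out held 0 reads of Mmp15. Those kept, of vehicle mice V53179 and V53185, held 83 and 34 reads, and the PDPN+ neratinib libraries held 3, 3, 0 and 0. Timp1, Timp2 and Timp3 had interaction values of -0.24 (SE 0.45), 0.62 (SE 0.30) and -1.38 (SE 0.71), with adjusted p-values of 0.953, 0.460 and 0.506.

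Other genes of the same system were counted from lists, to be read against the 24.3% of all tested genes that were higher in PDPN+ cells and the 25% that were lower. Of 13 tested activators and cell-surface regulators, 7 were higher and 5 lower in PDPN+ cells. Among them A2m, a broad protease trap, was higher (5.85, SE 0.57), and lower were Sdc1 (-3.78, SE 0.40), a shed proteoglycan, and Bsg (-2.60, SE 0.26), which encodes the Mmp-inducing protein basigin. Reck, a membrane-bound inhibitor of several Mmp enzymes, was higher by 7.57 (SE 0.99; it was chosen after its value was seen). The ADAM sheddases were divided, with 3 of 7 higher and 3 lower: Adam19 at 6.69 (SE 0.94), Adam12 at 2.58 (SE 0.53) and Adam8 at -3.87 (SE 0.66). Of the 6 ADAMTS-like proteins, which lack the protease domain, 2 were higher and 2 lower. Of 12 other matrix proteases and their helpers 8 were higher, among them Bmp1 (4.53, SE 0.26), the procollagen C-proteinase, Ctsk (7.94, SE 0.49), a collagen-cutting cathepsin, and Pcolce (3.79, SE 0.27), and 2 were lower. Of 12 matrix substrates 10 were higher, with Vcan, versican, at 7.86 (SE 0.38), and 1 was lower. Each gene named here had an adjusted p of at most 0.000486 with edgeR.

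None of these genes passed in either neratinib comparison. Closest among the 9 matrix substrates tested in PDPN+ cells were the collagen genes Col3a1 (0.73, SE 0.24, unadjusted p = 0.0121) and Col1a1 (0.84, SE 0.34, unadjusted p = 0.0332) and the microfibril gene Fbn1 (0.89, SE 0.38, unadjusted p = 0.0382). Their adjusted p was 0.9998 (edgeR), and 8 of the 9 differences were positive, where 52.8% of all genes were. Col1a1 stood at 1646 to 2805 TPM in PDPN+ neratinib libraries and 854 to 2791 TPM in PDPN+ vehicle libraries, which overlap. Htra3, a serine protease of the matrix, had a difference of 1.35 (SE 0.51, unadjusted p = 0.0231, adjusted p = 0.9998). In EpCAM+ cells the smallest unadjusted p-values among the listed genes belonged to A2m (-2.32, SE 0.70, unadjusted p = 0.0067) and Mep1b, which encodes a meprin subunit (2.87, SE 1.06, unadjusted p = 0.0194), both with an adjusted p of 0.999.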

How the data were processed

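RNA of 19 libraries of sorted cells was sequenced after low-input amplification. Per the submitters' processing notes, reads were quantified with Salmon 1.9.0 on GRCm39 (mm39). For each transcript the authors deposited estimated counts from Salmon, not normalised, and TPM, scaled within a library for length and depth, per the file headers. Amplified reads are not independent molecules.

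Of 147828 transcripts 137063 had their identifier in GENCODE M21 and gave 51707 gene sums, with estimated counts rounded to whole reads. That annotation is of another build, so it gave names only, and promoters are RefSeq's on GRCm38.p6. Gene counts were tested with edgeR 4.0.16 in R 4.3.3 (TMM scaling, filterByExpr, robust quasi-likelihood test, Benjamini-Hochberg over all genes tested, adjusted p under 0.05), within each population for neratinib and over all 19 libraries for the populations and the interaction. Standard errors were derived from the log2 difference and the F statistic. The script was tested on simulated data with known log2 changes of 1 and 2. Of these it called 0% and 5.62% in the PDPN+ neratinib comparison and 28.3% and 70.5% in the EpCAM+ one. For the interaction it called 0% and 1.03%. A lack of calls in these comparisons thus does not show a lack of effect.

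The alternatives comprised omission of the low-count filter, DESeq2 1.42.0, edgeR with size factors of DESeq2, limma 3.58.1 on log2(TPM + 1) at a mean TPM of at least 1, all libraries in 1 fit, mouse as a block, single treatments, and leaving out each library or those that stand apart. Genes given with statistics are the Timp genes, those with the highest levels, the largest population differences and the 4 smallest p-values of each neratinib comparison and of the interaction, and up to 3 per list; exceptions are marked. Members and lists were chosen with earlier results of these data known. Same-numbered PDPN+ and EpCAM+ libraries were taken as one mouse by label, and their deviations from the group means correlated at -0.107 to 0.0306 over 19626 genes in 8 mice. One overlap of a member with a neighbouring gene is not reported here.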

Additional observations from a re-analysis of the deposited data

Results flagged for a closer look

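In 6 of the 61 gene and group pairs examined, 1 library stood apart from the rest of its group by more than Dixon's 95% limit. Chance passes that limit in about 1 of 20 groups of normally distributed values. TPM values, some of them 0, need not be so distributed, so the 6 of 61 cannot be set against that rate. In PDPN+ vehicle mouse V53188, Adamts6 had 14.4 TPM, against 0.0955 to 1.45 TPM in the other 3 vehicle mice, and Mmp13 had 19.5 TPM, against 0 to 1.26 TPM. Mmp7 had 1.78 TPM in PDPN+ vehicle mouse V53179 and 0 in the other 3. With all others at 0, a single library passes the limit whatever its level. Among EpCAM+ neratinib libraries, Mmp15 was low in mouse N53178, at 2.03 TPM against 7.28 to 8.48 TPM, and Timp3 was high in mouse N53184, at 55.8 TPM against 10.7 to 16.4 TPM. In EpCAM+ vehicle mouse V53192, Mmp3 had 10.0 TPM, against 0 to 1.15 TPM in the other 5. The cause of these values was not tested.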

How the results depend on the processing

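No member was called in either neratinib comparison under any of the 14 alternatives in PDPN+ cells and 17 in EpCAM+ cells. Over all genes in PDPN+ cells, 21 were called higher and 90 lower (0.566%) with all libraries in 1 fit, and 12 genes with DESeq2. Between populations 20 to 29 members were called higher in PDPN+ cells over 27 alternatives, and 3 to 5 lower, with a median log2 difference of 2.28 to 6.13. Over the same alternatives 13.6 to 25.6% of all genes tested were higher and 14.7 to 47.7% were lower. The lower count was 5 with no low-count filter, where Adamts13 and Mmp20 were added and 19.1% of all genes were lower. It was also 5 without the PDPN+ vehicle libraries of mice V53175 and V53188, where Adamts13 and Mmp13 were added. In that setting 25.9% of all genes were lower. Without those libraries the interaction had 1 lower call, Mmp15, on the few PDPN+ reads given above, where 2.48% of all genes were lower. With mouse as a replicate block over 8 mice, 23 members were higher and 3 lower, and Adamts6, Adamts20 and Mmp27 lost their calls. Over all genes tested with the block 13.6% were higher and 22% lower, against 24.3% and 25% in the fit of all 19 libraries. In neratinib libraries alone 6 members lost their calls: Adamts15 was at 1.84 (edgeR, adjusted p = 0.143), and Adamts16, Adamts20, Mmp8, Mmp16 and Mmp27 had too few reads to be tested. In vehicle libraries alone Adamts16, Adamts19, Adamts20, Mmp8 and Mmp27 were likewise not tested. With limma on TPM, Adamts16, Adamts20, Mmp8, Mmp16 and Mmp27 fell under the level limit and Mmp13 was called lower (-1.75), where 17.7% of all genes were higher and 47.7% lower.

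Directions turned for values close to 0 or resting on 1 library. Adamts1 between populations was -0.0021 with DESeq2 and with its size factors, -0.076 with no filter, -0.42 with limma on TPM, -0.29 without V53175 and V53188, -0.42 in neratinib libraries alone and -0.26 to 0.21 when each library was left out. The median difference of members with neratinib in PDPN+ cells, 0.15, was -0.20 without mouse N53178. The interaction of Mmp28 was 0.088 with limma on TPM and -6.09 to 0.10 with libraries left out. That of Timp1 was 0.0095 without V53175 and V53188 and -0.49 to 0.041 with libraries left out. Leaving out single libraries gave -0.025 to 0.29 for Timp2 with neratinib in PDPN+ cells and -0.14 to 0.81 for Timp3 in EpCAM+ cells. The cause was not tested. Depth limits members near 0 in one population, whose fitted differences depend on few reads.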
